A study of Mus musculus with 15 samples.

Results

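Neurotrophins and ligands of the glial cell line-derived neurotrophic factor (GDNF) family are secreted proteins on which sensory neurons depend for survival, target innervation and regrowth. Neurotrophins bind receptor tyrosine kinases of the Trk family, and all of them also bind the shared receptor p75NTR, the product of Ngfr. GDNF family ligands bind a membrane-anchored GFRα coreceptor, and the complex then engages the receptor tyrosine kinase RET. The genes examined here were Ntrk2 (TrkB, the receptor of brain-derived neurotrophic factor), Ntrk3 (TrkC, the receptor of neurotrophin-3), Ngfr, Ret, the coreceptor genes Gfra1, Gfra2 and Gfra3, and the ligand gene Bdnf. They were taken by symbol from a count table of 55573 genes, and all 8 were found and passed the filter on low counts, which kept 16567 genes.

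The table held 15 right trigeminal ganglia (TG), the ganglia of the corneal sensory neurons, from CD1 male mice that were 10 weeks old. In every mouse the epithelium and front stroma of the right cornea had been removed inside a 2 mm circle, so no group was uninjured, and a drop of the antibiotic tobramycin followed. The eye then received drops of its treatment 3 times a day until the TG was taken on day 12. Groups of 5 TG were given vehicle, resolvin D6 (RvD6, a docosahexaenoic acid derivative that the labels call RvD6-standard) or its stereoisomer RvD6si (the labels' RvD6-isomer). The amount of lipid per drop for these mice is not given in the sources used here. The libraries are numbered as in their labels, with vehicle as replicates 1 to 5, RvD6 as 6 to 10 and RvD6si as 11 to 15. Labels and methods do not give the batches in which the TG were prepared, and p-values measure the spread between these samples.

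Total counts were 4125962 to 9903396 per library, and member counts ran from 109 (Bdnf) to 3188 (Ret). The 10 neuronal markers (such as Rbfox3 and Uchl1), 6 of satellite glia and 7 of myelinating Schwann cells all had counts, which matches the TG label. 5 libraries stood apart within their group, namely vehicle replicate 3, RvD6 replicates 8, 9 and 10, and RvD6si replicate 15. The summed normalized count of the neuronal markers was 62793 and 65662 in RvD6 replicates 9 and 10, against 81286 to 115139 elsewhere. Markers of skeletal muscle summed to 11522 and 16395 in RvD6 replicates 8 and 9 and to at most 2293 elsewhere. Pituitary markers (7 of 8 with a count, Lhb at 0) reached 27038 in vehicle replicate 3 and 16780 in RvD6 replicate 10, against 71.4 to 5917 elsewhere. Granulocyte precursor markers summed to 5006 to 16480 in RvD6 and to 14111 in RvD6si replicate 15, but to at most 4227 in vehicle and 911 in the other RvD6si libraries. Erythroid markers summed to 41369 to 76006 in RvD6 and to 85801 in RvD6si replicate 15. They summed to 17123 to 36168 in vehicle and to at most 18926 in the other RvD6si libraries. Results are given with and without these 5 libraries where they matter. RvD6 replicates 6 and 7 were kept, with granulocyte sums of 13168 and 16480. Leaving out the 5 therefore does not remove the granulocyte and erythroid markers from RvD6. Because whole ganglia were measured, fewer cells of a type and less RNA per cell cannot be told apart.

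A count for one of these genes adds up transcripts that encode different proteins, and the table does not separate them. Ntrk2 and Ret are shown because their receptor forms differ at the end of the coding sequence. GENCODE M21 lists 7 coding transcripts of Ntrk2 with 5 coding lengths, from 1398 to 2463 bases without the stop codon. The longest encodes the full-length receptor with its kinase domain, and a form of 1428 bases encodes the truncated receptor that lacks it. Ret has a long form of 3345 coding bases and a short form of 3219, which differ in their carboxy-terminal tail. The last 30 coding bases of each form are given 5′ to 3′ on the strand of the gene in GRCm38, with the stop codon in capitals.
Ntrk2 full-length (Ntrk2-201, chr13:59128324-59128353, plus strand): tctcccgtctacctggatatcctaggcTAG
Ntrk2 truncated (Ntrk2-202, chr13:58932031-58932060, plus strand): ttgtttcataagatcccactggatgggTAG
Ret long (Ret-201, chr6:118153853-118153882, minus strand): gcaaaattaatggacacatttgatagcTAA
Ret short (Ret-202, chr6:118155256-118155285, minus strand): agaatttcacatgcatttactagattcTAG
Every value of Ntrk2 and Ret below is the sum over such forms.

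Each count covers all annotated exons of a gene, in GRCm38. Ntrk2 spans chr13:58806569-59133970 (plus strand, 19292 exonic bases), Ntrk3 chr7:78175959-78738012 (minus, 30170) and Ngfr chr11:95568818-95587735 (minus, 3446). Ret spans chr6:118151745-118197718 (minus, 6763) and Bdnf chr2:109674700-109727007 (plus, 6217). The coreceptor genes are at chr19:58235604-58455909 (Gfra1, minus, 5476), chr14:70890120-70979838 (Gfra2, plus, 3539) and chr18:34689898-34720387 (Gfra3, minus, 1997). The reads were also counted without regard to strand. Exons of Gfra1 share 416 bases (7.597% of its exonic length) with Gm16277 on the opposite strand, and those of Bdnf share 896 bases (14.412%) with Gm45346, so these 2 genes are measured with less certainty. The other 6 share no exonic base with another gene.

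A normalized count is the count of a library over its DESeq2 size factor. To set genes beside each other, these were divided by the exonic length of the gene in kilobases. On this per-kilobase scale, Ret and Gfra3, the coreceptor of artemin, were the highest of the 8 in every group. In vehicle, Gfra3 was at 339 ± 62.9 normalized counts per kb (mean ± SD, n = 5) and Ret at 283 ± 48.0, with overlapping ranges and Gfra3 the higher in 4 of 5 libraries. All 5 vehicle libraries lay lower for Gfra1, at 121 ± 21.5 per kb, than the lowest library for Ret. Ngfr followed at 103 ± 12.9 per kb, Ntrk2 at 82.7 ± 10.8, Gfra2 at 75.2 ± 20.8, Bdnf at 36.2 ± 14.7 and Ntrk3 at 30.03 ± 9.00, and each of these overlapped its neighbour in the order. With RvD6si the order changed at the top. Ret was at 405 ± 64.9 per kb and Gfra3 at 319 ± 66.4, and Ret was the higher of the pair in 5 of 5 libraries, although the ranges overlapped. The order also depended on the length used. With the longest coding transcript in place of all exons, Ret ranked above Gfra3 in vehicle as well, at 351 against 339 per kb, and Ntrk2 rose from the fifth to the third place at 182.

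**Figure D1:**
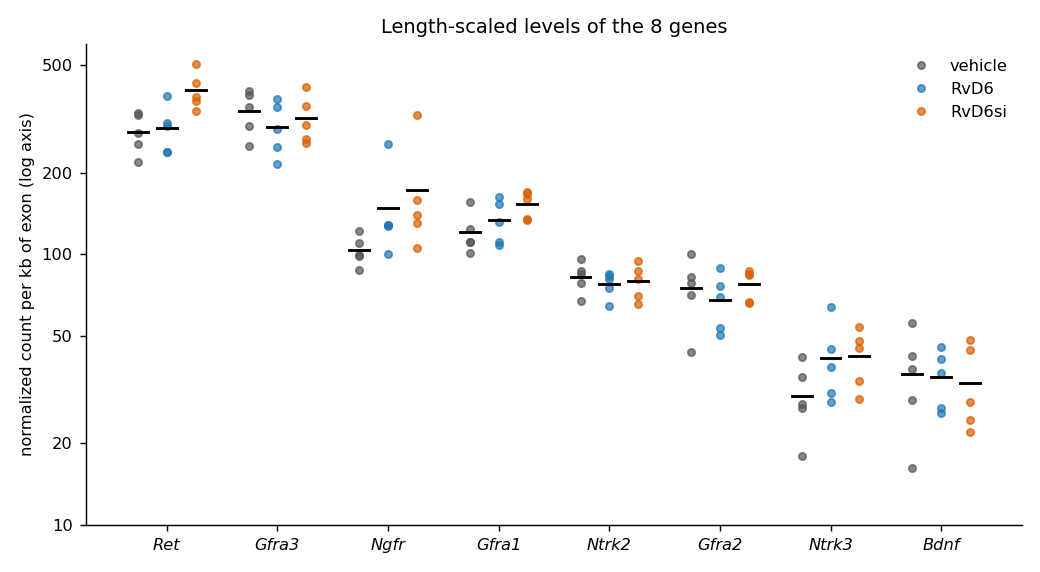
Normalized counts per kilobase of exon (log axis) of the 8 genes, ordered by their mean over the groups; each point is a library and each bar a group mean (n = 5). Ret and Gfra3 are above the other genes in every group mean, with Ret at 405 in RvD6si against 283 in vehicle.

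RvD6si was compared with vehicle to ask whether the isomer changed these genes in the ganglion. Of the 8 estimates, the largest relative to its error was that of Ret, the kinase shared by GDNF family ligands, which was 1.42 times as high as in vehicle. The normalized counts of Ret were 2247, 2220, 1487, 1902 and 1727 in vehicle. They were 3414, 2291, 2910, 2494 and 2578 with RvD6si. Every RvD6si library lay above every vehicle library, which was so for 2.48% of all genes tested. The log2 fold change of Ret was 0.51 (SE 0.16, 95% interval 0.18 to 0.84). With edgeR its adjusted p was 0.117 (unadjusted 0.00461), so it did not pass 0.05, whereas DESeq2 gave an adjusted p of 0.0301. Thus 0 of 8 genes passed with edgeR, where 0.67% of all genes tested did, and 1 of 8 passed with DESeq2, where 8.13% did. Without the 5 libraries that stood apart, the log2 fold change of Ret was 0.46 with an adjusted p of 0.289 (edgeR). In the 15 edgeR fits with 1 library left out it was 0.42 to 0.57 (adjusted p 0.0895 to 0.304), lowest without RvD6si replicate 11. With the length trend removed it was 0.38 (edgeR adjusted p 0.239). With the neuronal marker score, a mean over the 10 markers on a log2 scale, as a covariate, the estimate of Ret was 0.33 (edgeR adjusted p 0.276). This score was −0.051 to 0.14 in vehicle and 0.10 to 0.27 with RvD6si. The summed counts of the same markers were 100723 to 113281 in vehicle and 89400 to 115139 with RvD6si.

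3 of the 8 genes had an unadjusted p under 0.05 in RvD6si, all higher, against 8.69% of all genes that were higher at that level. Beside Ret these were Ngfr and Gfra1. Ngfr, which encodes the low-affinity neurotrophin receptor of neurons and Schwann cells, was at 420, 378, 303, 341 and 340 in vehicle and at 1125, 364, 483, 549 and 452 with RvD6si. Replicate 11 was about 2 times as high as the next RvD6si library, and 4 of the 5 lay above all vehicle libraries. Its log2 fold change was 0.73 (SE 0.28, 95% interval 0.14 to 1.32, edgeR adjusted p 0.205) and became 0.37 without replicate 11. The glial marker lists were set beside Ngfr, and 0 of their genes passed with edgeR in this comparison. The 5 markers used for non-myelinating Schwann cells (Scn7a, Ncam1, L1cam, Gfap and Cadm2) all had counts. They summed to 2024 to 3006 in vehicle and 2822 to 4169.5 with RvD6si. Whether other cells, such as neurons, added to this sum was not tested. The 6 of satellite glia summed to 61805 to 75162 in vehicle and 44932 to 66709.6 with RvD6si. The 7 of myelinating Schwann cells summed to 101621 to 159265 and 94481 to 156525. In each list the ranges overlapped. Replicate 11 had the highest non-myelinating Schwann cell sum and the lowest satellite glia sum of all 15 libraries. The part of these cells in the Ngfr estimate was not tested. Gfra1, the preferred coreceptor of GDNF, was at 858, 610, 678, 611 and 555 in vehicle and at 875, 917, 736, 932 and 743 with RvD6si. 3 of 5 RvD6si libraries exceeded the highest vehicle library, and the log2 fold change was 0.34 (SE 0.15, 95% interval 0.01 to 0.66, edgeR adjusted p 0.292).

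Ntrk3 was at 1261, 1062, 819, 846 and 541 in vehicle and at 1625, 1443, 880, 1025 and 1356 with RvD6si. 3 of 5 libraries were above all of vehicle, and the log2 fold change of 0.47 had a 95% interval of −0.03 to 0.98 (edgeR adjusted p 0.341). The other 4 genes overlapped widely. Ntrk2, which transmits the survival signal of BDNF, was at 1296 to 1858 in vehicle and 1269 to 1823 with RvD6si (log2 fold change −0.06, 95% interval −0.34 to 0.22). Gfra2, the coreceptor of neurturin, was at 154 to 355 and 234 to 307 (0.04, −0.41 to 0.49). For Gfra3 the ranges were 504 to 804 and 517 to 833 (−0.09, −0.48 to 0.30). Bdnf, the ligand of TrkB that nociceptors themselves make, was at 101 to 345 in vehicle and 138 to 300 with RvD6si (−0.11, −0.73 to 0.51). For Ntrk2 the interval reaches no further than 1.17 times the vehicle level, while for Bdnf it spans 0.603 to 1.43 times.

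**Figure D2:**
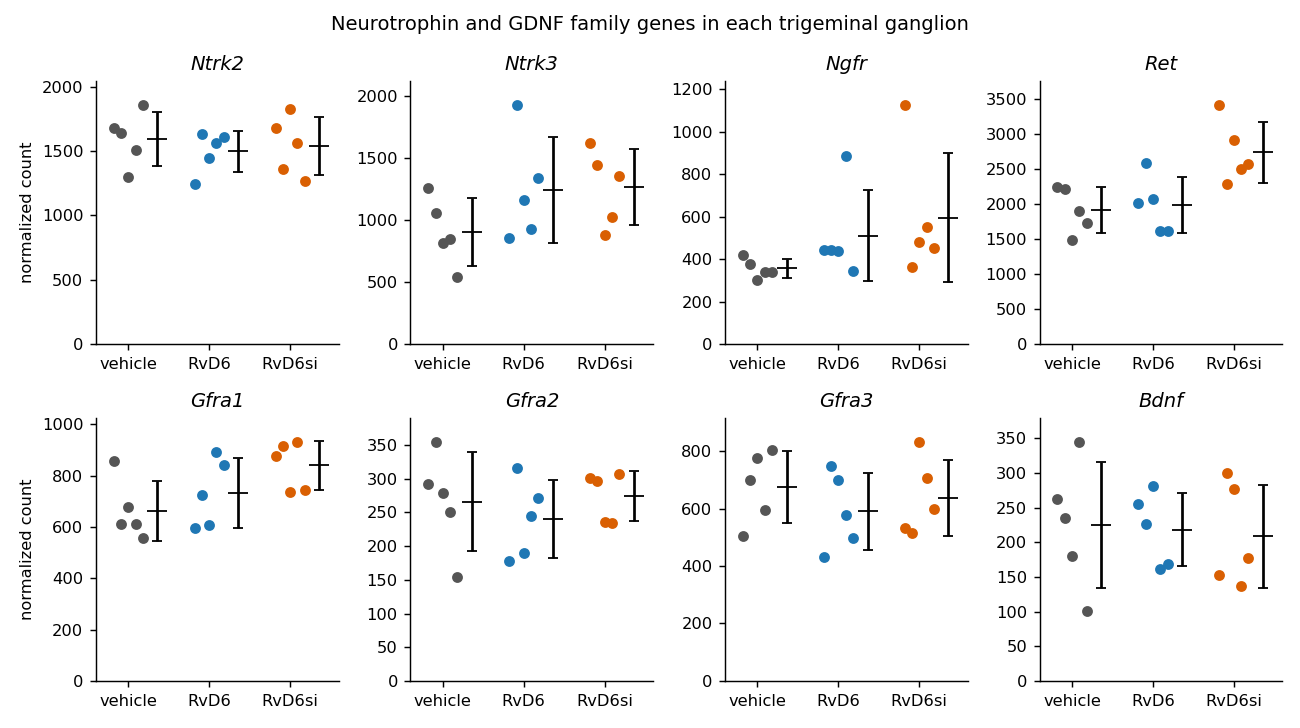
Normalized counts of the 8 genes in each TG; points are libraries and the bars beside them mean ± SD (n = 5 per group). For Ret, the RvD6si libraries (2291 to 3414) are all above the vehicle libraries (1487 to 2247), and for Ngfr a single library is high in RvD6si (1125) and in RvD6 (884).

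RvD6 was compared with vehicle in the same fit. None of the 8 genes passed with edgeR or DESeq2, and none had an unadjusted p under 0.05. The background was 0 of all genes (0.0%) with edgeR, 1.92% with DESeq2 and 13.6% at an unadjusted p under 0.05. Ret was at 2021, 2593, 2066, 1620 and 1618 with RvD6, within or near the vehicle range (log2 fold change 0.03, 95% interval −0.30 to 0.36). The 2 lowest of these were replicates 9 and 10, which had the lowest neuronal marker levels. With the neuronal marker score as a covariate the log2 fold change of Ret was 0.33, and without the 5 libraries it was 0.16 (edgeR adjusted p 0.922). Ngfr was at 442, 443, 437, 884 and 345 with RvD6, so that 4 of 5 libraries were above all of vehicle (0.50, −0.09 to 1.09, edgeR adjusted p 0.452). The high value was in replicate 9, and without it the log2 fold change of Ngfr was 0.21. The non-myelinating Schwann cell markers summed to 2171 to 3928 with RvD6, and the highest of these sums was also that of replicate 9.

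Ntrk3 was at 857, 1930, 1160, 927 and 1345 with RvD6 (0.44, −0.06 to 0.94, edgeR adjusted p 0.435), and its estimate against vehicle was close to that of RvD6si, with which it shares the vehicle libraries. The remaining intervals against vehicle all held 0. They ran from −0.39 to 0.18 for Ntrk2, from −0.20 to 0.45 for Gfra1 and from −0.61 to 0.28 for Gfra2. For Gfra3 the interval was −0.60 to 0.18 and for Bdnf −0.68 to 0.57. 2 of 5 RvD6 libraries were below every vehicle library for Gfra3, whose RvD6 values were 431 to 749.

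The 2 lipids, which differ in stereochemistry, were then compared with each other. No gene of the 8 passed with either tool, against 0.235% of all genes with edgeR and 0.936% with DESeq2. Ret was the only one of the 8 with an unadjusted p under 0.05 (0.00743, where 4.18% of all genes were higher at that level). It was 1.39 times as high with RvD6si as with RvD6 (log2 difference 0.47, SE 0.16, 95% interval 0.14 to 0.81), with an adjusted p of 0.330 in edgeR and 0.181 in DESeq2. 2 of 5 RvD6si libraries were above all RvD6 libraries. This difference was −0.0013 (SE 0.21) with the neuronal marker score as a covariate and 0.30 without the 5 libraries that stood apart. That score was 0.10 to 0.27 in RvD6si and −0.49 to 0.036 in RvD6. These ranges did not overlap, so the fit with the covariate cannot separate a difference between the lipids from one in the score. The differences of the other genes were 0.05 (−0.23 to 0.33) for Ntrk2, 0.03 (−0.47 to 0.53) for Ntrk3 and 0.23 (−0.36 to 0.82) for Ngfr. They were 0.21 (−0.12 to 0.53) for Gfra1, 0.20 (−0.25 to 0.65) for Gfra2, 0.12 (−0.27 to 0.51) for Gfra3 and −0.05 (−0.68 to 0.57) for Bdnf. These intervals leave room for differences of up to 1.26 times in Ntrk2 and 1.76 times in Ngfr.

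**Figure D3:**
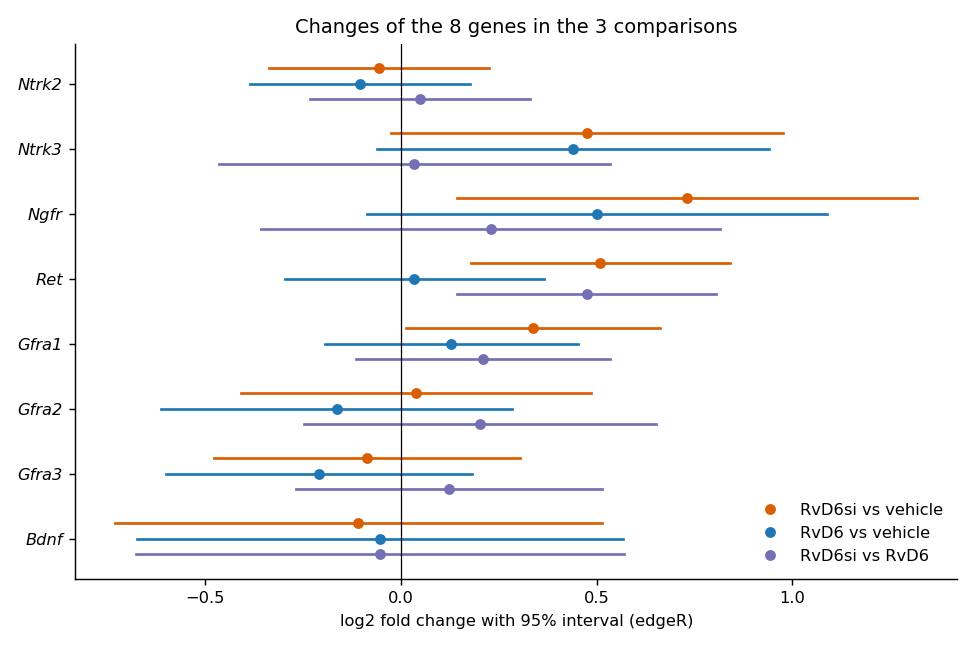
log2 fold changes of the 8 genes from edgeR (points) with 95% intervals (lines) in the 3 comparisons of the groups of 5. For Ret the intervals of RvD6si against vehicle (0.18 to 0.84) and against RvD6 (0.14 to 0.81) lie above 0, and that of RvD6 against vehicle (−0.30 to 0.36) holds it.

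The neuronal markers were set beside the 3 receptors with the largest estimates, a scaling chosen after the data had been seen. Per 1000 normalized counts of those markers, Ret was at 14.5 to 21.4 in vehicle, 19.6 to 31.9 with RvD6 and 23.7 to 32.2 with RvD6si. On this scale RvD6si was again above all of vehicle, while the 2 lipids overlapped. Ngfr was at 2.95 to 3.99 in vehicle, 4.15 to 14.1 with RvD6 and 4.00 to 10.6 with RvD6si. Both lipids were thus above all of vehicle, RvD6si only by 4.00 against 3.99. On plain normalized counts 4 of 5 libraries of each lipid were above all of vehicle. The marker sums used for the scaling were 62793 to 105255 in RvD6 and 100723 to 113281 in vehicle. The share of all genes without overlap on this scale was not computed. Ntrk3 was at 4.78 to 12.0 in vehicle, 9.32 to 23.7 with RvD6 and 7.64 to 15.9 with RvD6si, and these overlapped. The sums in RvD6 also hold the libraries with muscle and pituitary markers, and the part of those tissues in these values was not tested. The means of Ret on this scale were 18.3 in vehicle and 27.0 with RvD6si. With the marker score as a covariate, the log2 fold change of Ret against vehicle fell from 0.51 to 0.33, so the 2 adjustments differed.

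**Figure D4:**
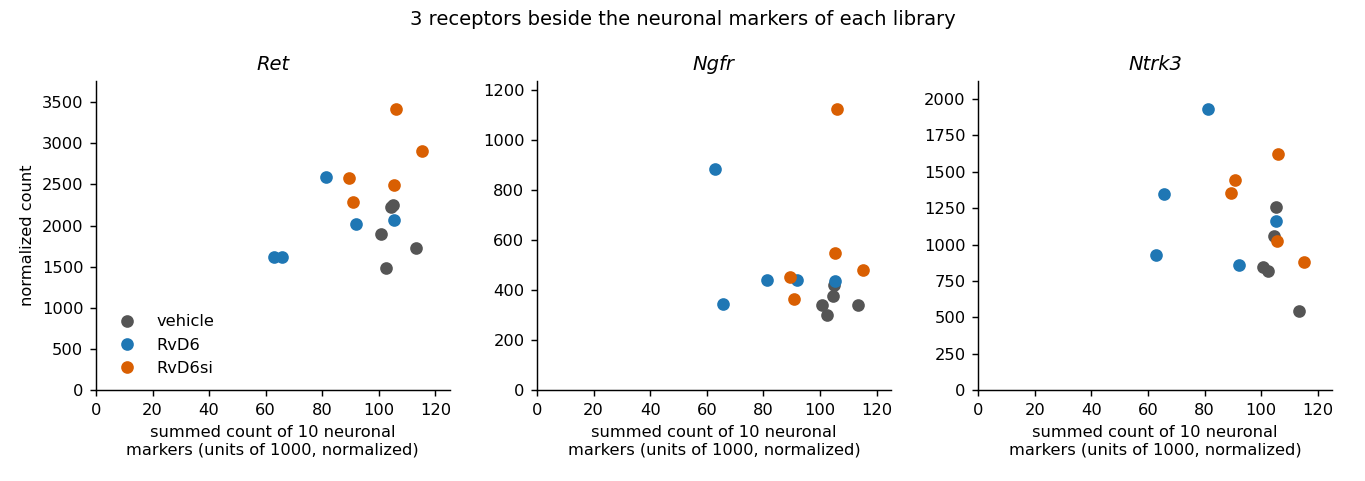
Normalized counts of Ret, Ngfr and Ntrk3 against the summed normalized count of 10 neuronal markers (in units of 1000) in the same library; each point is a TG (n = 5 per group). RvD6 replicates 9 and 10 are at the left (62793 and 65662) and have the lowest RvD6 values of Ret, 1620 and 1618.

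Shares within a receptor family do not depend on how a library was scaled. Of the summed per-kilobase level of Gfra1, Gfra2 and Gfra3, Gfra3 took 63.0 ± 8.01% in vehicle, 59.2 ± 6.36% with RvD6 and 57.5 ± 6.72% with RvD6si (SD, n = 5). Gfra1 took 22.9 ± 5.31%, 27.2 ± 5.03% and 28.1 ± 4.42%, and Gfra2 took 14.1 ± 3.89%, 13.6 ± 2.12% and 14.3 ± 3.06%. The groups differed by about 1 SD or less. Of Ntrk2 and Ntrk3 together, Ntrk2 took 73.5 ± 6.43% in vehicle, 66.0 ± 5.86% with RvD6 and 65.5 ± 7.57% with RvD6si, again with overlapping ranges (67.5 to 84.3% in vehicle and 59.4 to 76.4% with RvD6si).

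The ligands and receptors outside the 8 genes were examined next in 2 lists. Most ligand genes were barely counted in the ganglion. Ntf5 (neurotrophin-4) had no read in any library, nor had Gfral, the receptor of GDF15. Gdnf had at most 5 reads in a library, Artn at most 4 and Pspn at most 1. Ntf3 had at most 15 reads, in RvD6 replicate 7, and 0 in all RvD6si libraries. These 6 genes were not tested. Nrtn (neurturin) was the only ligand besides Bdnf that was tested, at 7.91 to 35.2 normalized counts, and its log2 fold changes of 0.10 and 0.26 against vehicle had errors of 0.47.

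Of the coreceptors, Gfra4, which binds persephin, was at 264 ± 72.3 in vehicle and 210 ± 46.8 with RvD6si (log2 fold change −0.33, edgeR adjusted p 0.495). The sortilin family genes Sort1, Sorcs1, Sorcs2 and Sorcs3, the p75NTR partners Lingo1 and Kidins220, and Ncam1, an alternative receptor of GDNF, did not pass in any comparison. Their estimates lay between −0.51 for Sorcs2 (RvD6) and 0.76 for Sorcs3 (RvD6si). Those of Sorcs3 depended on the libraries and were 1.40 with RvD6si (edgeR adjusted p 0.163) and 1.56 with RvD6 (0.440, against 0.28 with all libraries) without the 5 libraries that stood apart, and 1.36 with RvD6si without vehicle replicate 3. Sdc3, a heparan sulphate proteoglycan that binds GDNF, was at 484, 633, 444, 544 and 299 in vehicle and at 828, 998, 565, 588 and 718 with RvD6si. It was higher with RvD6si by 0.61 (SE 0.20) on the log2 scale, and the adjusted p was 0.125 with edgeR and 0.0357 with DESeq2. That call was lost when DESeq2 was fitted to the 2 groups alone (0.0545).

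4 further lists held the intracellular part of the pathway. Of 20 adaptors of Trk and Ret kinases tested, 1 rose with RvD6si and 0 fell with edgeR, where 0.67% of all genes passed. DESeq2 gave 19 of them an adjusted p in RvD6si and called 2 higher and 1 lower, where 8.13% of all genes were called. The median log2 fold change of the list was 0.20 with RvD6si and 0.23 with RvD6, with 14 of 20 estimates above 0 in both comparisons, against 0.02 over all genes tested in each. The comparisons share the vehicle libraries. The gene that rose was Shc2, a neuronal member of the Shc adaptors that dock on phosphorylated Trk and Ret. Shc2 was at 97.3, 79.2, 62.6, 76.7 and 26.3 in vehicle, and at 160, 225, 139, 212 and 166 with RvD6si. All RvD6si libraries were above all of vehicle for Shc2, as in 2.48% of all genes. Its log2 fold change was 1.39 (SE 0.31, 95% interval 0.73 to 2.05, adjusted p 0.0473 with edgeR, 0.00108 with DESeq2). The call was near the threshold and was lost in edgeR in 13 of the 15 fits with 1 library left out (adjusted p 0.0407 to 0.127), although the log2 fold change stayed between 1.19 and 1.55. It was also lost without the 5 libraries that stood apart (1.40, adjusted p 0.163), with the length trend removed (0.0658) and with the neuronal marker score as a covariate (0.0951). With RvD6, Shc2 was at 134, 135, 134, 143 and 56.4, above all of vehicle in 4 of 5 libraries (0.80, SE 0.31, edgeR adjusted p 0.281).

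The other 2 adaptors that DESeq2 called were Gab1 and Ptpn11. Gab1, a docking protein downstream of Grb2, was at 352 to 570 in vehicle and 568 to 780 with RvD6si (0.56, SE 0.19, adjusted p 0.142 with edgeR, 0.0457 with DESeq2). With RvD6, Gab1 was at 382 to 782 (0.46, SE 0.19, edgeR adjusted p 0.299), and 4 of 5 libraries were above all of vehicle. Ptpn11 encodes the phosphatase SHP2, which carries the signal from Gab1 and Frs2 to the Ras pathway. It was at 830, 867, 729, 656 and 875 in vehicle and at 525, 467, 515, 471 and 523 with RvD6si. All 5 RvD6si libraries were below all of vehicle, as in 2.4% of all genes (−0.67, SE 0.16, adjusted p 0.0631 with edgeR, 0.00353 with DESeq2). Ptpn11 passed in edgeR with the 2 groups alone (0.0359), with at least 10 counts in every sample (0.0375), with the length trend removed (0.0368) and without RvD6 replicate 9 (0.0156). Of the 15 edgeR fits with 1 library left out, that was the only 1 to pass (adjusted p 0.0156 to 0.148). In edgeR it did not pass without the 5 libraries that stood apart (0.124) or with the neuronal marker score as a covariate (0.0595). With RvD6, Ptpn11 was at 397 to 760.

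Of the 11 effectors of p75NTR, 0 passed with edgeR in RvD6si, while at an unadjusted p under 0.05 1 was higher (8.69% of all genes) and 1 lower (7.3%). DESeq2 gave 7 of the 11 an adjusted p in RvD6si and called 1 higher and 1 lower, where 8.13% of all genes were called. Bex3 (also known as NADE), which binds the p75NTR death domain, was at 663 to 939 in vehicle and 435 to 705 with RvD6si (−0.46, SE 0.15, adjusted p 0.141 with edgeR, 0.0400 with DESeq2). With RvD6 it was at 527 to 664 (−0.45, adjusted p 0.212 with edgeR, 0.101 with DESeq2). When DESeq2 was fitted to the 2 groups alone, Bex3 did not pass with RvD6si (0.0680) and passed with RvD6 (0.0470). Arhgdia, a p75NTR partner, was at 668 to 820 in vehicle and 818 to 1317 with RvD6si (0.46, SE 0.16, adjusted p 0.156 with edgeR, 0.0487 with DESeq2).

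Of the 12 genes known to respond to Trk and Ret signalling, such as Spry4, Dusp6 and Etv5, 0 passed with edgeR in any comparison. DESeq2 called 0 as well, but in RvD6si it gave an adjusted p to only 6 of them. With RvD6si 11 of 12 estimates were above 0 (51.2% over all genes) and their median was 0.51. 2 of them were higher at an unadjusted p under 0.05 (8.69% of all genes), with Spred1 the smallest at 68.3 to 263 in vehicle and 180 to 406 with RvD6si (0.69, SE 0.30, edgeR adjusted p 0.268). With RvD6 7 of 12 were above 0. Dusp4 had the smallest p there (1.5, SE 0.82, edgeR adjusted p 0.443).

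Of 7 transcription factors tied to the receptors in developing sensory neurons (such as Runx1 for Ret and Runx3 for Ntrk3), 0 passed with either tool in any comparison, and 2 were lower with RvD6 at an unadjusted p under 0.05, as were 5.99% of all genes. The smallest p with RvD6si was that of Maf (0.48, SE 0.28, edgeR adjusted p 0.408). With RvD6 it was that of Isl1, at 791 to 1298 against 1165 to 1651 in vehicle (−0.42, SE 0.15, edgeR adjusted p 0.238).

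**Figure D5:**
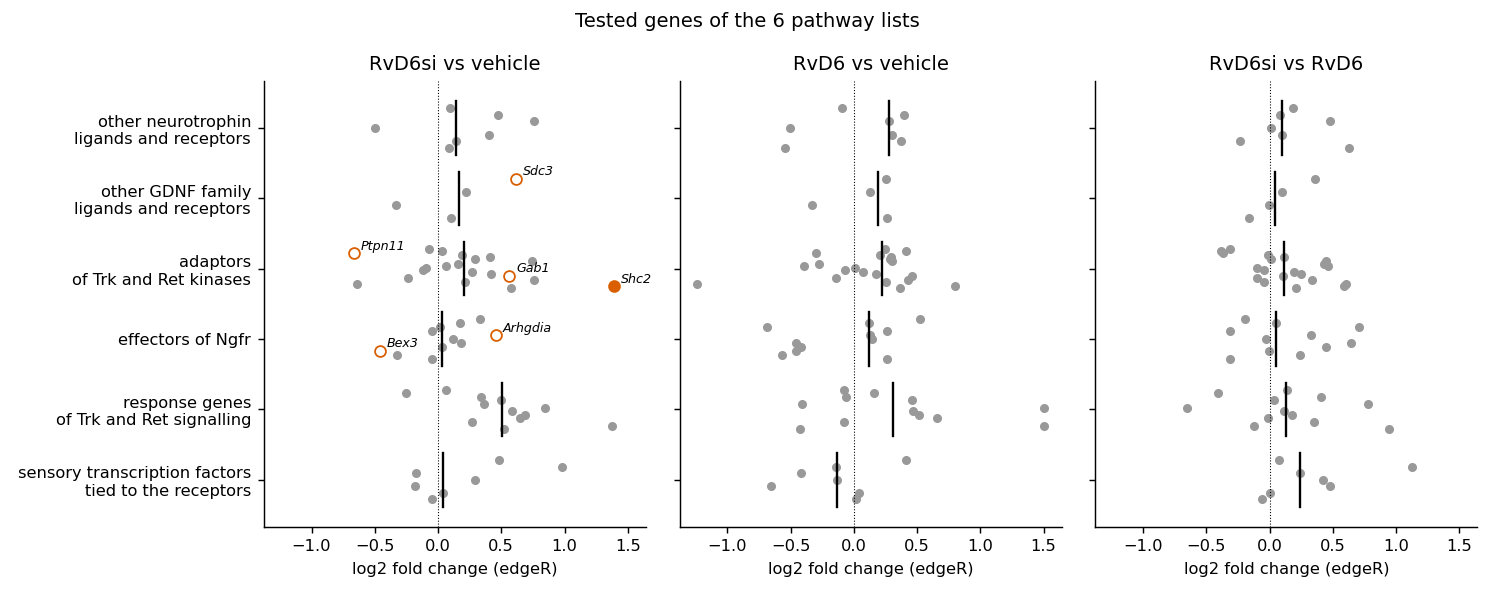
log2 fold changes (edgeR) of the tested genes of 6 pathway lists in the 3 comparisons (n = 5 per group); the filled point passed edgeR, open points passed DESeq2 only, and vertical bars are list medians. The filled point is Shc2 (1.39) in RvD6si against vehicle, and no gene passed in the other 2 comparisons in these fits of all 15 libraries.

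How the 8 genes varied among libraries of the same group was described by the correlation of log2 CPM over the 15 libraries after the group means had been subtracted. The libraries share differences in depth and tissue, so no test was made. Ntrk3 and Gfra2 had the highest correlation of the 28 pairs (Pearson's r 0.83), followed by Ntrk3 and Ret (0.49) and by Gfra1 and Gfra2 (0.47). The lowest was −0.36, for Gfra1 and Gfra3. Ret followed the markers of non-peptidergic nociceptors most closely among 16 marker lists (0.76) and ran against those of the pituitary (−0.69). The 4 non-peptidergic nociceptor markers summed to 1887 to 2289 in vehicle, 1511 to 2246 with RvD6 and 2022 to 2881 with RvD6si. These ranges overlapped, and the part of these cells in the Ret values was not tested. Ntrk3 ran against the myelinating Schwann cell (−0.77) and satellite glia markers (−0.76). Ngfr had its highest value with non-myelinating Schwann cell markers (0.60) and ran against those of large-diameter and low-threshold neurons (−0.62). With the non-myelinating Schwann cell markers, Gfra2 had a value of 0.65, Ntrk3 of 0.55 and Gfra1 of 0.52, so this was not particular to Ngfr.

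Among 10075 other genes with a mean of at least 10 CPM, those most like Ret were Epb41l3 (0.93), G3bp2 (0.91) and Mrps5 (0.87). Those most like Ntrk3 were Pdzd8 (0.93), Arih1 (0.92) and Flvcr1 (0.92), and those most like Gfra2 were Cadm2 (0.92), Fmn2 (0.92) and Gm5182 (0.92). For Ngfr they were Srpr (0.91), Caprin1 (0.91) and Hgs (0.91), and for Gfra1 Ick (0.90), Fzd3 (0.89) and Clock (0.89). Ntrk2 was most like Taok2 (0.87), Slc13a3 (0.85) and Ctns (0.83). Bdnf was most like Cpne8 (0.86), Ascc2 (0.84) and Akr7a5 (0.82). Gfra3 was most like H2-K1 (0.88), Irf9 (0.85) and Jmjd4 (0.82), the first 2 of which are interferon-responsive genes.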

How the data were processed

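Poly(A) RNA of 15 TG was amplified with an adapted Smart-seq2 protocol, which does not keep the strand. The authors aligned the reads to GRCm38 with Rsubread and deposited raw counts of reads on the exons of each gene of GENCODE M22, made with featureCounts. The header names its version 1.5.0-p1 and the submitters' processing notes Subread 1.6.5. The deposited table also gives exonic lengths. Symbols and transcripts came from GENCODE M21, which names 99.7% of the identifiers. The treatment named in the labels set the groups. In R 4.3.3, edgeR 4.0.16 (TMM, minimum count of 10 and total of 15, quasi-likelihood F test, 15 samples in 3 groups, Benjamini-Hochberg adjustment over 16567 genes, threshold 0.05) gave the main test, and DESeq2 1.42.0 with default settings an alternative. SE and 95% intervals come from the edgeR fit. Both were tested on simulated data. The summed level of a marker list is the sum of its normalized counts. log2 CPM had a prior count of 2.

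The 8 genes, the lists and the tests were chosen with earlier results of these data known. Named were the 8 genes, list genes past the threshold with either tool, all genes of the 2 lists of other ligands and receptors (some are not reported here), the smallest p of each list in each comparison with vehicle, and the 3 genes most like each of the 8. A few further list genes were named as examples of their list. Chi-square per degree of freedom between the counts of 2 libraries of a group was 11.3 to 49.2 (genes with at least 20 counts), so no library repeated another. Alternatives were DESeq2 with all samples or with 2 groups, edgeR with 2 groups, RLE normalization, no filter, at least 10 counts in every sample, removal of a trend on gene length (lowess, span 0.3), the mean centred log2 CPM of the neuronal markers as a covariate, and each sample left out.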

Additional observations from a re-analysis of the deposited data

Results flagged for a closer look

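3 values stood apart from the other 4 of their group by Dixon's criterion for 5 samples, where chance alone gives about 2.1 among the 42 groups of values examined. Ngfr was at 884 normalized counts in RvD6 replicate 9, with 81.9% of the range of its group lying between it and the next library. Ngfr was also at 1125 in RvD6si replicate 11, with a gap of 75.7% of the range. Shc2 was at 56.4 in RvD6 replicate 10, below the other 4 RvD6 libraries by 90.6% of the range. RvD6 replicate 9 had the lowest neuronal and the highest muscle marker sum (62793 and 16395), and RvD6 replicate 10 the second lowest neuronal sum (65662) and a pituitary sum of 16780. RvD6si replicate 11 had a neuronal sum of 105947 and a muscle sum of 174, within the range of the other RvD6si libraries. Its neuronal marker score of 0.27 was the highest of the 15 libraries. This library had a pituitary sum of 146, the lowest of its group. It also had the highest non-myelinating Schwann cell sum of the 15 libraries (4169.5) and the lowest satellite glia sum (44932), and RvD6 replicate 9 had the second highest non-myelinating Schwann cell sum (3928). The part of these tissues and cells in the 3 values was not tested.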

How the results depend on the processing

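With edgeR, 0 of the 8 genes passed in each comparison under every planned setting and with any library left out (0 to 0). With DESeq2, Ret passed in RvD6si against vehicle (1 gene with all samples and 1 with 2 groups), and 0 passed elsewhere. Counts of all genes called moved more. From 111 for RvD6si against vehicle, they went to 920 and 979 (DESeq2 with all samples and 2 groups), 315 (at least 10 counts in every sample), 63 (length trend removed), 66 (neuronal covariate), 3 (5 libraries left out) and 0 to 229 with 1 library left out (0 without RvD6si replicate 11). From 0 for RvD6 against vehicle they went to 369, 664, 38 (edgeR, 2 groups), 56 (no filter), 24 (at least 10 counts) and 0 to 51. From 39 between the lipids they went to 185, 182, 17, 59, 23, 0 (neuronal covariate) and 2 to 156.

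Estimates near 0 changed sign in 35 fits, the largest of them 0.25 in size and the lowest adjusted p 0.876. Removal of the length trend gave 0.053 for Gfra3 (RvD6si) and −0.077 for Ret (RvD6). The neuronal covariate gave −0.039 for Gfra1 and 0.17 for Bdnf (RvD6), and between the lipids −0.25 for Ntrk3, −0.0013 for Ret and −0.044 for Gfra3. Without the 5 libraries the values were −0.027 for Gfra1 and 0.0079 for Bdnf (RvD6) and −0.13 for Ntrk3 (between the lipids). With 1 library left out, the ranges were −0.13 to 0.011 for Ntrk2, −0.10 to 0.16 for Gfra2 and −0.29 to 0.10 for Bdnf (RvD6si), and −0.075 to 0.10 for Ret and −0.24 to 0.15 for Bdnf (RvD6). Between the lipids they were −0.026 to 0.11 for Ntrk2, −0.067 to 0.24 for Ntrk3, −0.13 to 0.53 for Ngfr, −0.0016 to 0.22 for Gfra3 and −0.21 to 0.066 for Bdnf.

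With the longest coding transcript as length, per-kilobase levels (vehicle, RvD6, RvD6si) were 182, 171 and 176 for Ntrk2, 46.0, 63.1 and 64.2 for Ntrk3, 351, 364 and 502 for Ret, and 52.7, 51.2 and 48.9 for Bdnf. Gfra1 was at 143 (vehicle) and 181 (RvD6si). With normalized counts in place of counts per kilobase, the shares were 41.2, 47.0 and 48.0% for Gfra1, 42.3, 37.8 and 36.2% for Gfra3, 64.1, 55.5 and 55.1% for Ntrk2 and 35.9, 44.5 and 44.9% for Ntrk3. TMM in place of the size factors moved no level by 1 SD.

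The causes of these changes were not tested. The 5 libraries were left out, and the transcript length used, after the data had been seen. No paired analysis was possible because the replicate numbers 1 to 15 occur in 1 group each. The parts of depth and of the spread between libraries in the precision were not tested.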
